A study of Mus musculus with 6 samples.

Results

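T-box genes encode transcription factors that share a T-box DNA-binding domain. The 7 genes described here are Tbx1, Tbx2, Tbx3, Tbx4, Tbx5, Tbx18 and Tbx20, all protein-coding genes of the mouse. Their binding neighbourhood was read from ChIP-seq peak lists of GLI3R, the repressor form of the Hedgehog effector GLI3. A peak was counted for a gene when its summit, the position of highest enrichment, lay within 200 kb of the gene interval on the mm10 build. By this rule 8 of the 3640 peaks of the doxycycline list and 3 of the 4379 peaks of the untreated list belonged to the set. Tbx2 and Tbx4 are neighbours with a gap of 44.4 kb, and Tbx3 and Tbx5 are neighbours with a gap of 112 kb, so the 7 genes occupy 5 separate loci and a peak may be counted for both genes of a pair.

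The cells were cardiac progenitors derived from mouse embryonic stem cells of the A2Lox.cre background. Both conditions used the same line, GLI3R-FTA, which carries tagged GLI3R. In the doxycycline condition it was induced with 500 ng/ml doxycycline from day 5 for 24 h, and in the untreated condition it was not. Cells of both were harvested on day 6, and the Avi-tagged protein was recovered with streptavidin beads. The beads bind the tag, so GLI3 made from the cells' own gene was not the target in either condition. What the untreated pull-down recovered, where the tagged protein was not induced, was not tested. There were 6 libraries, with 2 pull-downs and 1 input for each condition, and 1 deposited peak list per condition. Every value below is therefore that of a single list with no replicate error, and no comparison between the conditions could be tested. The peak lists hold no expression values, so the labelled cell type could not be checked against its markers.

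In heart development, Tbx5 activates genes of the first heart field and the atria and is required for septation. Tbx2 and Tbx3 repress chamber genes and thereby keep the atrioventricular canal and the conduction system distinct from working myocardium. Tbx1 maintains progenitors of the second heart field and the pharyngeal arches, Tbx20 acts in the chambers and the valves, and Tbx18 marks the sinus venosus and the epicardium. Tbx4, the neighbour of Tbx2, is best known for roles in the hindlimb and lung. Hedgehog signalling acts in the second heart field, where it is needed for septation of the atria and outflow tract. GLI proteins bind DNA at sites close to the consensus GACCACCCA, and the repressor form occupies such sites when ligand is absent.

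Of the 11 peaks near these genes, only 1 fell on a gene start for which a promoter sequence was available, and the sequences of the others were not analysed here. It was a doxycycline peak near Tbx1 at chr16:18498545-18498723, inside the interval of Gnb1l, and its summit lay 62 bases before a start of Gnb1l. The stretch shown is the part of the peak that precedes this start (RefSeq, GRCm38.p6, plus strand, chr16:18498545-18498712), with the match to the GLI consensus in capitals.
Gnb1l upstream stretch: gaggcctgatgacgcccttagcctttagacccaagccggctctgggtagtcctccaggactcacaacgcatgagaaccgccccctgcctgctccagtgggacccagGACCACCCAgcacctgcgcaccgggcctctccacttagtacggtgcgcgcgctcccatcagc
The summit, base 189 of the 300-base promoter window, coincided with the first base of the match, which ran to base 197. An exact match on either strand was present in 83 of 32851 promoter windows (0.253%). Of the 116 windows under any doxycycline peak 5 held one (4.31%), and of the 9 under any untreated peak 0 did. These shares are descriptions of letters in the windows and say nothing of whether the factor bound through them.

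For Tbx1, Tbx4, Tbx18 and Tbx20 themselves 5 promoter windows were available, from 250 bases before to 50 bases after a start, with 2 for Tbx1. None held GACCACCCA on either strand, exactly or with 1 mismatch, a level reached by 6.74% of all windows. Each came within 2 mismatches, as 58.3% of all windows did. The closest stretches are set out beside that of Gnb1l so that the difference can be read (RefSeq, GRCm38.p6, each on its gene's strand, with 9 bases that come closest to the consensus in capitals, the first such place on that strand where several tied).
Gnb1l, plus strand, chr16:18498641-18498669: tgggacccagGACCACCCAgcacctgcgc
Tbx1, minus strand, chr16:18588913-18588941: agcgggcactGCCCACCCTccggatgtaa
Tbx1, minus strand, chr16:18590772-18590800: gagaagaggaTACAACCCAggcctcgacc
Tbx4, plus strand, chr11:85896707-85896735: aactgtgccgGACCCCCCCctcccccccc
Tbx18, minus strand, chr9:87731417-87731445: gactggcagaGACGAGCCAgatggcggcg
Tbx20, minus strand, chr9:24774343-24774371: agtgacgtgaGACCACGCTgactggctgc
No listed peak of either condition lay near these windows. The nearest doxycycline summits were 90.3 and 92.1 kb from the Tbx1 windows, 143 kb from that of Tbx4, 157 kb from that of Tbx20 and 386 kb from that of Tbx18. The nearest untreated summit was 97.3 kb away, at Tbx20.

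The strength of a peak is given in 3 ways. The fold enrichment is the authors' ratio of the fragments at the summit to the local expectation, and −log10 q is the authors' measure of confidence. The pileup, the number of fragments over the summit, was worked back from the deposited fold and −log10 p, and its exact 95% Poisson interval covers counting error only. The lowest pileup that entered a list was 5 fragments with doxycycline and 4 without. Where a gene has no listed peak, no site near it passed the authors' threshold, which does not show it to be unbound.

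The strongest peak of the set lay beside Tbx3. In the doxycycline list it spanned chr5:119651630-119651939, with its summit 18.8 kb from Tbx3, and was enriched 10.2-fold and its −log10 q was 12.3. Its pileup was 13 fragments (interval 6.92 to 22.2) over a local expectation of 0.368 fragments, and it ranked 212 of 3640 by −log10 q. Between 93.4% (weaker) and 94.2% (weaker or equal) of the list lay at or below it, and at 310 bp it was the widest of the 8, where the list's median width was 160 bp. Its summit lies inside 2 annotated long non-coding RNA genes, Tbx3os1 and Gm16064, and in no protein-coding gene. The nearest untreated summit was 288 kb away from it.

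The other doxycycline peaks of this locus were weaker and lay on either side of Tbx5. A peak at chr5:119705180-119705349 lay 20.5 kb from Tbx3 on its opposite side and 91.3 kb from Tbx5. A further peak at chr5:119968464-119968608 lay 83.3 kb beyond the far end of Tbx5. Both were enriched 5.12-fold, and 3.07 was their −log10 q. At each summit 6 fragments piled up (interval 2.2 to 13.1), a number shared by 22.5% of the list. The intervals of 13 and 6 fragments overlap, and whether these pileups differ was not tested. Neither summit falls in an annotated gene of any kind. By the same rule Tbx5 also takes the peak beside Tbx3, at a distance of 145 kb, so Tbx5 had 3 doxycycline summits within 200 kb and Tbx3 had 2. Neither had an untreated summit within 200 kb, and the nearest were 306.7 kb from Tbx3 and 334.6 kb from Tbx5. For all 3 doxycycline peaks the nearest protein-coding gene was Tbx3 or Tbx5.

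Around Tbx1 there were 2 doxycycline peaks and no untreated peak. The stronger spanned chr16:18472590-18472782, 108 kb from Tbx1 and inside Txnrd2, which encodes a mitochondrial thioredoxin reductase. It was enriched 7.31-fold with a −log10 q of 6.61 on 9 fragments (4.12 to 17.1). The weaker was the peak at the start of Gnb1l, 82.3 kb from Tbx1, at 4.87-fold with a −log10 q of 2.81 and 6 fragments (2.2 to 13.1). By −log10 q 27.1% of the doxycycline list was weaker than this peak, whose summit holds the exact GLI consensus shown above. Its local expectation of 0.439 fragments was the highest of the 8. Both peaks have another gene nearer to them than Tbx1, which lies among 8 other protein-coding genes within 200 kb. The nearest untreated summit was 511.6 kb from Tbx1.

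Tbx2 and Tbx4 had peaks of both lists, all of them weak and inside other genes. The doxycycline peaks were at chr11:85753989-85754157 and chr11:85699668-85699827. Both lay inside Bcas3, whose interval ends beside Tbx2, at 78.6 and 133 kb from Tbx2 and 132 and 187 kb from Tbx4. The first was enriched 5.12-fold (6 fragments, 2.2 to 13.1) and the second 4.39-fold (5 fragments, 1.62 to 11.7), with −log10 q of 3.07 and 2.05. The pileup of the second is the smallest that the doxycycline list holds. An untreated peak at chr11:85676425-85676607 also lay inside Bcas3, 156 kb from Tbx2 and 23.2 kb from the nearer doxycycline summit, at 4.72-fold and 5 fragments (1.62 to 11.7). A second untreated peak at chr11:86091161-86091337 lay on the other side, inside Brip1 and 175 kb from Tbx4, at 3.87-fold and 4 fragments (1.09 to 10.2). Each list thus had 2 distinct peaks at this locus, and their counting intervals overlap.

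At Tbx20 the untreated peak was the stronger by its own list's values. The doxycycline peak at chr9:24617754-24617895 lay 103 kb from Tbx20, inside Dpy19l2, at 5.85-fold with a −log10 q of 4.17 and 7 fragments (2.81 to 14.4). The untreated peak at chr9:24871631-24871764 lay 97.4 kb away on the opposite side, at 7.07-fold with a −log10 q of 6.07 and 8 fragments (3.45 to 15.8). It is the strongest untreated peak of the set and the only one whose nearest protein-coding gene is a T-box gene. Its width was 134 bp, and no peak of the untreated list was narrower. Between 91.1% (weaker) and 94.6% (weaker or equal) of the untreated list lay at or below it. The counting intervals of 7 and 8 fragments overlap, over local expectations of 0.368 fragments with doxycycline and 0.272 without. Whether the 2 peaks differ was not tested.

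Tbx18 had no summit of either list within 200 kb. The nearest were 357.3 kb away in the doxycycline list, at 4.39-fold and 5 fragments, and 2267 kb away in the untreated list. No other protein-coding gene lies within 200 kb of Tbx18.

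**Figure D1:**
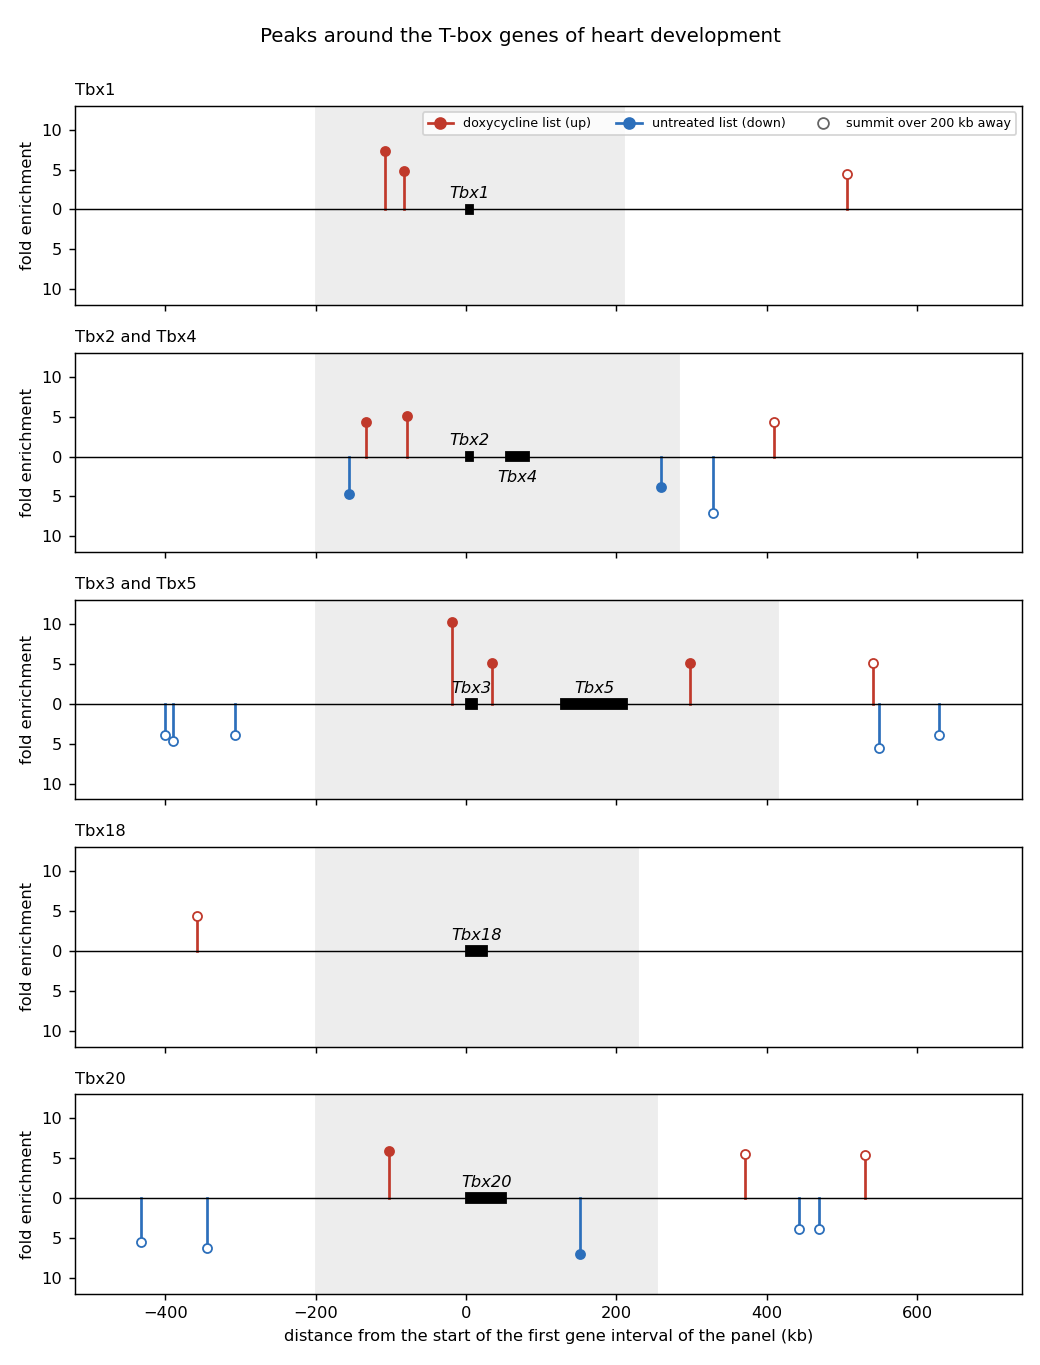
Map of the 5 loci, with the distance from the start of the first gene interval (kb) on the x axis and fold enrichment on the y axis, doxycycline peaks drawn upward and untreated peaks downward. Black boxes are the T-box gene intervals, grey marks the reach of 200 kb, and open circles are summits outside it. The peak of 10.2-fold stands beside Tbx3, and no filled marker stands in the Tbx18 panel.

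Within their lists the peaks near T-box genes were mostly of ordinary strength. Their median fold was 5.12 in the doxycycline list (whole list 5.5) and 4.72 in the untreated list (whole list 4.72). Their median −log10 q was 3.07 in the doxycycline list (whole list 3.81) and 2.52 in the untreated list (whole list 2.52). A −log10 q of at least 5 was reached by 2 of 8 doxycycline peaks, those beside Tbx3 and inside Txnrd2, and by 1 of 3 untreated peaks, that near Tbx20. Over the whole lists 33.3% of doxycycline peaks and 9.41% of untreated peaks reached it. The local expectation at the summits stayed near the most frequent value of each list, 0.368 fragments with doxycycline and 0.272 without. None of the 8 doxycycline and 3 untreated peaks overlapped a peak of the other list, and over the whole lists 2.01% of doxycycline and 1.71% of untreated peaks did, so a count of 0 is ordinary.

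**Figure D2:**
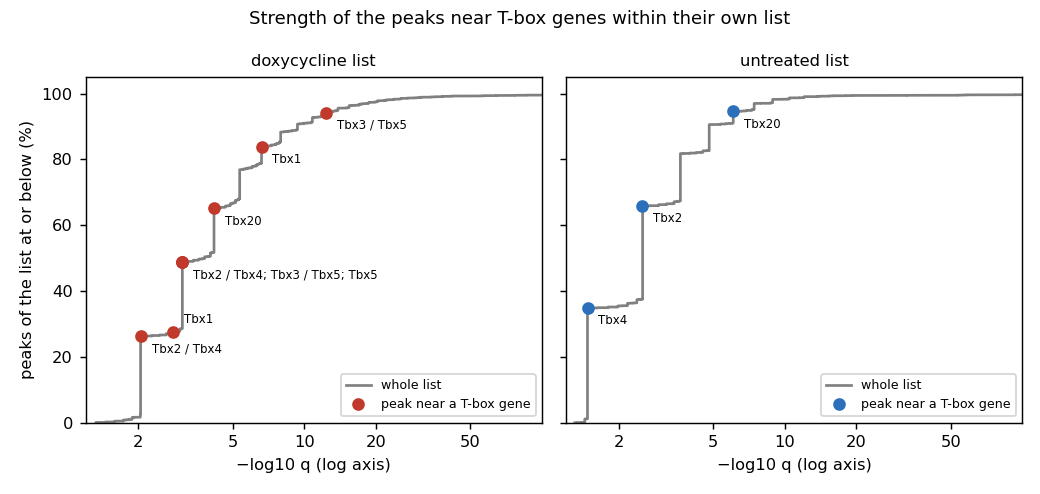
Cumulative share of each list (y axis, %) at or below a given −log10 q (x axis, logarithmic, drawn up to 100), with the doxycycline list on the left and the untreated list on the right. Each dot stands for 1 or more peaks near the named T-box genes at that value. The peak beside Tbx3, at 12.3, is the highest dot on the left, and that near Tbx20, at 6.07, the highest on the right.

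Of the 7 genes, 6 had a doxycycline summit within 200 kb, Tbx18 being the exception, where 49.4% of 21631 protein-coding genes had one. An untreated summit was present for 3 of the 7 (Tbx2, Tbx4 and Tbx20), where 48.1% of all genes had one. The 6 genes lie at 4 loci, and each neighbouring pair shares doxycycline peaks. The 3 genes lie at 2 loci, with a separate untreated peak for each. More doxycycline than untreated summits were counted for 5 genes, among all genes for 31.2%. Fewer were counted within 200 kb for 0 of the 7, among all genes for 29.5%. Within 500 kb Tbx20 had fewer, 3 against 5, and Tbx2, Tbx3 and Tbx4 had 3 in each list. Tbx1, Tbx5 and Tbx18 had more within 500 kb, at 3 against 0, 4 against 3 and 1 against 0. At least 2 doxycycline summits within 200 kb were counted for 5 genes, against 18.3% of all genes. The 3 of Tbx5 were equalled or exceeded by 6.46%. The same 5 genes, Tbx1 to Tbx5, had more doxycycline than untreated summits within 200 kb. Tbx2 and Tbx4 are counted through the same 2 doxycycline peaks, and their locus had 2 distinct peaks in each list. Tbx3 and Tbx5 share 2 doxycycline peaks. With summits of −log10 q of at least 5, doxycycline peaks reached 3 genes within 200 kb, where 23.5% of all genes had one. These were Tbx1, Tbx3 and Tbx5, of which Tbx3 and Tbx5 were reached by the same peak. Untreated peaks of that strength reached Tbx20 alone, where 6.10% of all genes had one. The difference from all genes was not tested.

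None of the 12 pairings of a doxycycline peak with a gene, and none of the 3 untreated pairings, fell inside a T-box gene interval, where 6.24% of all genes held a doxycycline and 6.03% an untreated summit. Within 50 kb only Tbx3 of the 7 had doxycycline summits, with 2, where 20.3% of all genes had at least 1. No T-box gene of the 7 had an untreated summit within 50 kb, where 19.1% of all genes had one. Within 100 kb the counts were 4 genes with a doxycycline summit, where 31.7% of all genes had one, and 1 gene with an untreated summit, where 30.6% had one. Within 500 kb they were 7 and 5, where 76.2% and 77.5% of all genes had one. For 6 of the 7 genes the nearest doxycycline summit was closer than the nearest untreated summit, as it was for 49.1% of all genes, and Tbx20 was the exception at 102.9 against 97.42 kb. Of the 6, the genes of each pair lie at 1 locus, and Tbx18 counts through a peak of 5 fragments 357.3 kb away.

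**Figure D3:**
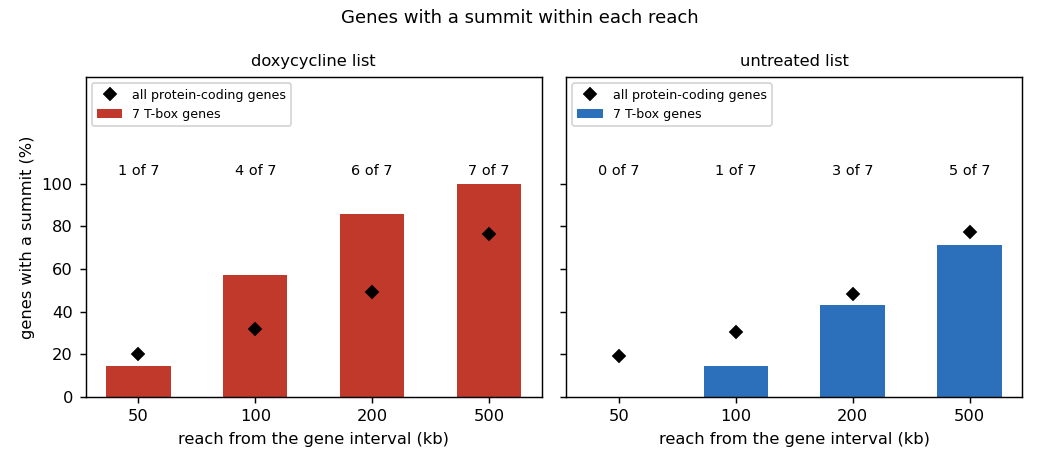
Share of genes (y axis, %) with at least 1 summit within 50, 100, 200 and 500 kb of the gene interval, for the doxycycline list on the left and the untreated list on the right. Bars are the 7 T-box genes, with their number written above, and diamonds are all 21631 protein-coding genes. At 200 kb the bars stand at 6 of 7 with doxycycline and 3 of 7 without.

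**Figure D4:**
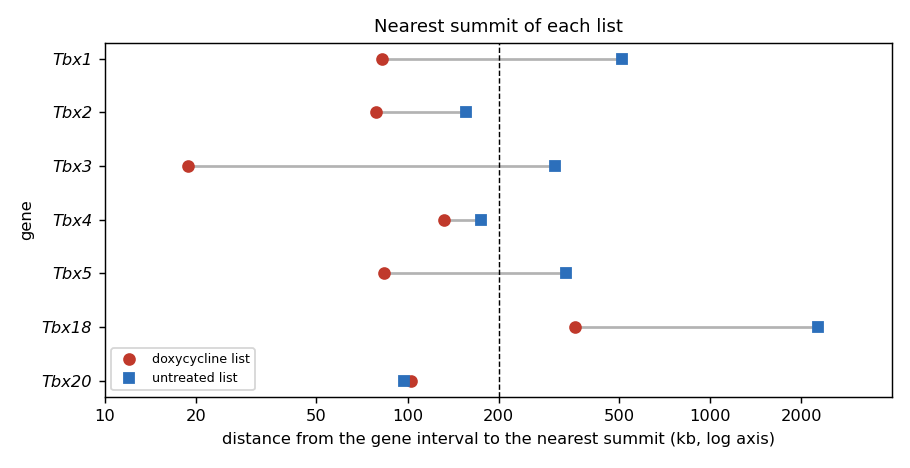
Distance (kb, logarithmic axis) from each T-box gene interval to the nearest summit of the doxycycline list (circles) and of the untreated list (squares). The dashed line marks 200 kb. Tbx3 has the shortest distance, 18.77 kb in the doxycycline list, and Tbx18 lies beyond the line in both.

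The edge of the rule affects the Tbx2 and Tbx4 counts most. Just inside 200 kb were the doxycycline peak at 187 kb and the untreated peak at 175 kb from Tbx4. Just outside were the untreated peak of Bcas3, 210 kb from Tbx4, and an untreated peak of 7.07-fold and 8 fragments inside Brip1, 246 kb from Tbx4. In the doxycycline list the first summit outside was that at 284 kb from Tbx3, which is counted for Tbx5, followed by one at 317 kb from Tbx20.

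Other T-box genes and the cardiac factors that work with T-box proteins give the setting. Of the other 10 T-box genes (T, Eomes, Mga, Tbr1, Tbx6, Tbx10, Tbx15, Tbx19, Tbx21 and Tbx22), 8 had a doxycycline and 6 an untreated summit within 200 kb, with a median of 1 summit each. Their strongest doxycycline peak, at 7.65-fold with a −log10 q of 7.26, lay 44.4 kb from Eomes, a regulator of mesoderm and endoderm formation, and inside Golga4. Their strongest untreated peak, at 7.07-fold, lay 153 kb from Mga and inside Rtf1. Of 8 cardiac partner factors (Nkx2-5, Gata4, Gata5, Gata6, Mef2c, Hand1, Hand2 and Isl1), 7 had a doxycycline and 4 an untreated summit, and 6 had a doxycycline summit of −log10 q of at least 5. The strongest, at 16.1-fold with a −log10 q of 25.5 and 21 fragments, lay 52.0 kb from Hand1, a factor of the left ventricle and extraembryonic tissue. Their strongest untreated peak, at 5.5-fold, lay 182 kb from Isl1. Ptch1, the Hedgehog receptor gene and a known GLI target, had 9 doxycycline and 0 untreated summits within 200 kb. The median of the 7 heart T-box genes was 2 doxycycline and 0 untreated summits. That of the 8 cardiac partner factors was likewise 2 doxycycline, with 0.5 untreated summits, and that of all protein-coding genes was 0 in both lists. Among the 8 partner factors, 6 had more doxycycline than untreated summits and 5 had at least 2 doxycycline summits. These traits were thus not particular to the 7 heart T-box genes. Of the other 10 T-box genes, 4 had more doxycycline than untreated summits, 2 had fewer, and 2 had at least 2 doxycycline summits.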

How the data were processed

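The deposited values were 2 peak lists, 1 per condition, on mm10. The submitters' processing notes name MACS2 2.1.1, Bowtie2 2.3.2 and SAMtools 1.5. Settings, pooling of pull-downs and any use of inputs are not stated there. The fold enrichment is a ratio deposited by the authors, as are −log10 p and −log10 q. Summits came from the deposited summit offset. The labels' protocols name GLI1 where the titles name GLI3R, and titles were followed.

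Rows that shared an interval were merged, which left 3640 of 3725 entries in the doxycycline list and 4379 of 4428 in the untreated list. Each pileup is the whole number whose Poisson upper tail gave the deposited −log10 p, with fold taken as pileup plus 1 over expectation plus 1. The tolerance of 0.01 was met by 99.75% of doxycycline peaks and by 99.84% of untreated ones. Total depth was not analysed here. Gene intervals were the 21631 protein-coding genes on 20 chromosomes in RefSeq GRCm38.p6, the assembly of mm10. They include predicted transcripts. Exons and introns were not analysed here. The planned rule named all 7 genes, with every peak where there were at most 4. The motif search in promoter windows was added after the peaks were seen. The members and lists were chosen with earlier results of these data known. On simulated data 100% of 2000 pileups and of 200 summits assigned among 21631 genes were recovered. Tools were matplotlib 3.10.9, scipy 1.17.1, pandas 2.3.3 and numpy 2.4.6 under Python 3.11.15.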

Additional observations from a re-analysis of the deposited data

How the results depend on the processing

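At the authors' threshold and within 200 kb there were 8 doxycycline and 3 untreated peaks (difference 5) near 6 and 3 of the 7 genes. With 50 kb they were 2 and 0 (difference 2) near 1 and 0 genes, and with 100 kb 5 and 1 (difference 4) near 4 and 1. With 500 kb they were 14 and 13 (difference 1) near 7 and 5. Among the 1000 peaks of highest −log10 q in each list, and likewise at −log10 q of at least 5, they were 2 and 1 (difference 1) near 3 and 1 genes. With only peaks whose nearest protein-coding gene is a T-box gene of the set, they were 3 and 1 (difference 2) near 2 and 1. Fewer or more peaks enter these counts by construction. With a pileup of at least 5 fragments in both lists there were 8 and 2 peaks, and counting every row or leaving out overlapping peaks changed none of the counts. The doxycycline count was the higher in all 9 alternatives, by 1 peak at 500 kb, among the top 1000 and at the stricter −log10 q. All 9 reuse the same 2 lists, so they are not independent of one another. Leaving out overlapping peaks could not change the counts, because none of these peaks overlapped one of the other list. The pileup filter could only remove untreated peaks, because the lowest pileup of the doxycycline list was already 5. The outcome of these alternatives was therefore fixed in advance. At the stricter −log10 q the whole doxycycline list also kept the larger share of its peaks, 33.3% against 9.41% of the untreated list. Only 4 of the 7 genes had a promoter window to search, and Tbx2, Tbx3 and Tbx5 had none. The GLI motif was found in 0 of these 4 genes exactly or with 1 mismatch, where 0.253% and 6.74% of all windows held it. With 2 mismatches it was found in all 4, as in 58.3% of all windows. The allowances were chosen after seeing the data. No paired analysis was possible because the pull-downs of a condition are represented by a single deposited list. Most pileups here are 4 to 9 fragments, which limits what a difference between peaks, or absence from a list, can show.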
